A study of Mus musculus with 16 samples.

Results

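The genes described here encode collagen chains, and were taken as all probes on the array whose annotated symbol is Col, a number, the letter a and a number, and which were detected (detection p-value under 0.05) on 2 or more arrays. The rule gave 35 probes of 27 genes, of 59 collagen probes and 37 collagen genes on the array and of 15495 probes and 11230 genes tested in all. Each gene is described by its probe of highest mean over the arrays, and the other probes of 5 genes are named by their identifiers where they differ. The members comprised 10 fibrillar chains, 4 chains of the basement membrane network, 2 of the beaded filament, 1 of the anchoring fibril, 4 fibril associated chains, 2 multiplexins, 3 transmembrane chains and Col28a1.

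Collagens are extracellular proteins whose chains wind around each other into a helix. Fibrillar collagens such as type I and type III are made largely by fibroblasts and give tissue its tensile strength, whereas type IV collagen forms the sheet-like network of basement membranes, on which the gut epithelium and the vessels rest. Type VII collagen anchors a basement membrane to the stroma beneath it, and types XV and XVIII (the multiplexins) are carried by basement membranes and the matrix next to them.

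Illumina bead arrays, 1 per sample, measured RNA of mucosa or tumours that had been dissected from the colon and small bowel of mice. All mice were of a mixed strain (B6/129/Balbc/CD1) and received doxycycline from 6-7 weeks of age, the wt animals included. The colon groups were LIN28B/Apcmin adenomas (genotype iLIN28B; Apcmin/+, 3 arrays used), Apcmin adenomas (Apcmin/+, 2 arrays) and wt mucosa (2 arrays). The small intestinal groups were LIN28B/Apcmin adenomas (2 arrays), LIN28B tumours (iLIN28B, 2 arrays), Apcmin adenomas (2 arrays) and wt mucosa (1 array). The title of LIN28B replicate 2 reads Jej where those of the other small intestinal arrays read D, abbreviations that the labels do not explain. Apc restrains Wnt signalling and the Apcmin allele truncates it, while iLIN28B is an inducible form of LIN28B, which binds RNA and keeps let-7 microRNAs from maturing. The labels do not name the promoter or cell type that drives iLIN28B. All mice were 3 months old except those of the LIN28B tumours, which were 8 months old and had a histology of adenoma/adenocarcinoma, so age and genotype cannot be told apart there. The 3 LIN28B/Apcmin colon arrays share the title number 2135 and both LIN28B arrays share 1737, while 1032 joins wt colon replicate 2 to wt small intestinal replicate 2. Titles that share a number carry different labels after it. Whether a number stands for an animal is not stated, so the p-values measure only the spread between these samples. In some groups that spread may lie within 1 animal or be technical.

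Of 16 arrays, 14 were used, on which 48.3% to 56.5% of probes were detected, with a median signal of 51 to 79.9. The other 2 stood apart: 12% of probes were detected on replicate 4 of the LIN28B/Apcmin colon tumours, and 5.28% on replicate 1 of wt small intestine. On each of these 2 arrays 4 of the 35 collagen probes were detected, and 28 and 31 of them read below a signal of 25. With both included, limma called no collagen gene in any of the 6 comparisons in which the 14 arrays gave calls. Over all genes LIN28B/Apcmin over wt colon then had 85 calls, against 3066 with the 14 arrays. LIN28B/Apcmin colon replicate 3 had lost 1985 signals to readings below 25, none of them from the 35 collagen probes described here. LIN28B/Apcmin small intestinal replicate 2 has a title that names both tumour and mucosa, and was the lowest of the 14 arrays for 10 of the 27 genes. Of the 8 epithelial markers measured, 7 or 8 were detected on every array. Of the 14 smooth muscle markers measured, 14 were detected on both wt colon arrays, 10 to 12 on Apcmin colon tumours and 9 to 12 on LIN28B/Apcmin colon tumours.

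**Figure D1:**
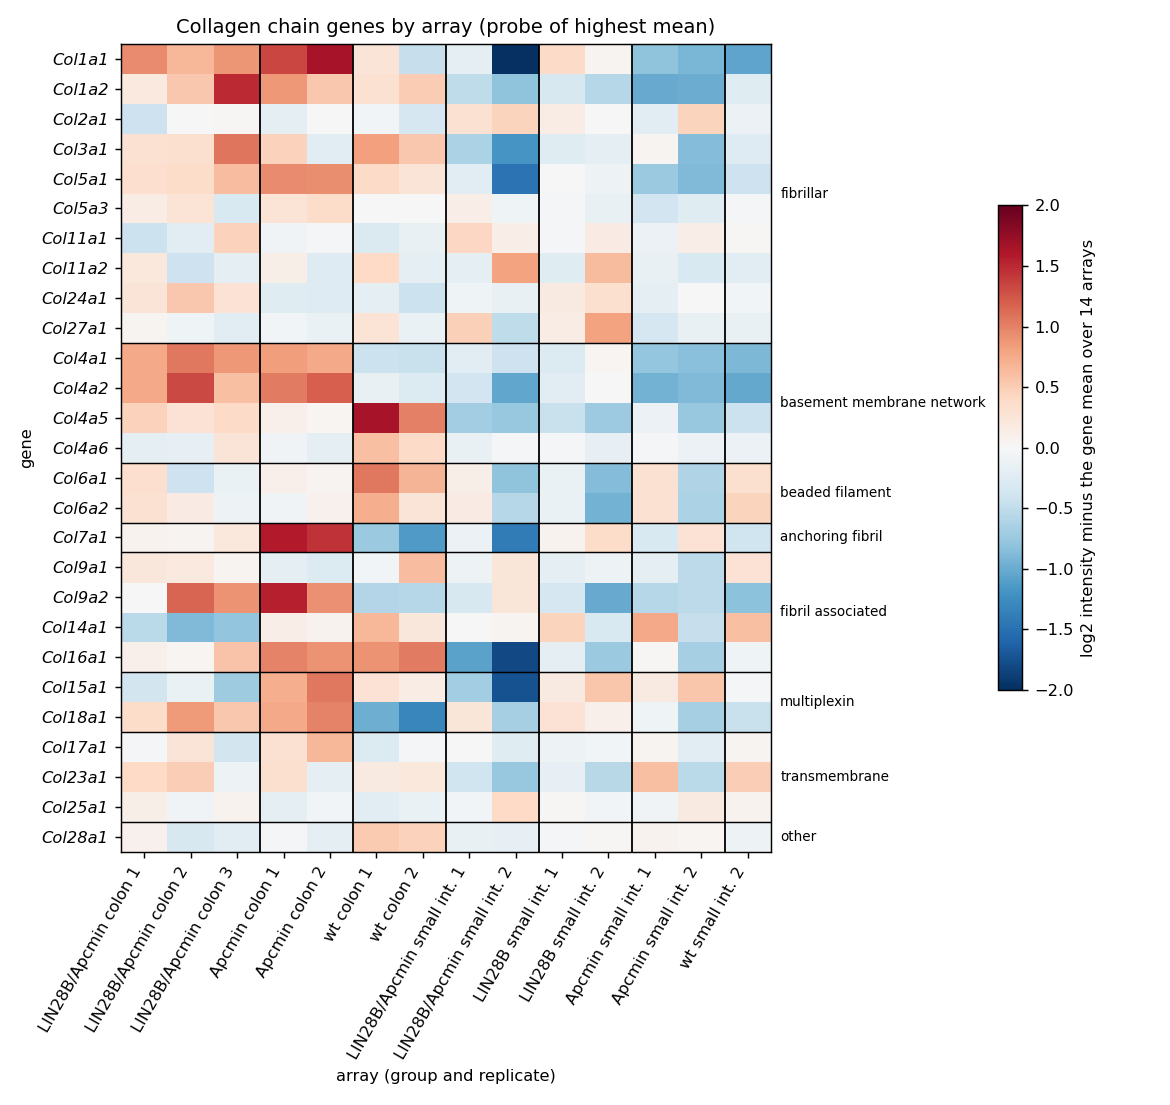
Each row is a collagen gene, ordered by structural class, and each column an array, ordered by group; colour is the log2 intensity minus the mean of that gene over the 14 arrays, cut at 2 in either direction. Col4a1, Col4a2 and Col18a1 are high on all 5 colon tumour arrays, Col4a5 is high on the wt colon arrays, and LIN28B/Apcmin small intestinal replicate 2 is the lowest array for 10 of the 27 genes.

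Of the 27 genes, 11 were detected on all 14 arrays, 9 on 7 to 13 and 7 on 2 to 6. The remaining 24 collagen probes on the array were detected on 0 arrays (21 probes) or 1 array (3 probes) and are not members, among them all probes of 10 genes. Just inside the rule, the Col4a6 probe ILMN_1254059 was detected on 2 arrays, at 5.13 and 4.92 log2 intensity in wt colon mucosa. Just outside it, the Col5a2 probe ILMN_2802687 was detected on 1 array and ranged from 4.27 to 5.14, and the Col9a1 probe ILMN_2706692, also on 1 array, from 4.30 to 5.16. Levels below are log2 intensities, each probe on its own scale. The range over the 14 arrays was 4.37 for Col1a1, the widest of the 27, then 2.98 for Col7a1 and 2.85 for Col16a1, down to 0.60 for Col25a1, a transmembrane collagen. The lowest values of Col1a1, Col7a1 and Col16a1 were all on LIN28B/Apcmin small intestinal replicate 2, and without that array the ranges were 2.71 for Col1a1 and 2.72 for Col7a1.

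Colon tumours were compared with wt colon mucosa to ask which collagens differ in tumours with the Apcmin allele alone or with LIN28B. In Apcmin tumours the type IV chains Col4a1 and Col4a2, the multiplexin Col18a1, the anchoring fibril chain Col7a1 and the fibril associated chain Col9a2 rose, and Col4a5 and Col28a1 fell. The same 5 genes rose in LIN28B/Apcmin tumours together with the fibrillar chain Col24a1, and Col4a5, Col28a1, Col4a6 and Col14a1 fell. Called means an adjusted p under 0.05 in limma, with Benjamini-Hochberg adjustment over all 15495 probes. Of 27 collagen genes, 6 were higher in LIN28B/Apcmin tumours, against 13.3% of all genes, and 4 lower, against 14% of all genes, so that calls in either direction stand beside 27.3% of all genes. In Apcmin tumours 5 of 27 were higher, against 6.4% of all genes, and 2 lower, against 7.65%, with 14.1% of all genes called in either direction. The median collagen difference was 0.06 on the log2 scale in both comparisons, against 0.04 over all genes in LIN28B/Apcmin tumours and 0.02 in Apcmin tumours. Both comparisons use the same 2 wt arrays. RNA was extracted from whole tissue, and in such samples fewer cells of a type and less RNA per cell cannot be told apart.

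**Figure D2:**
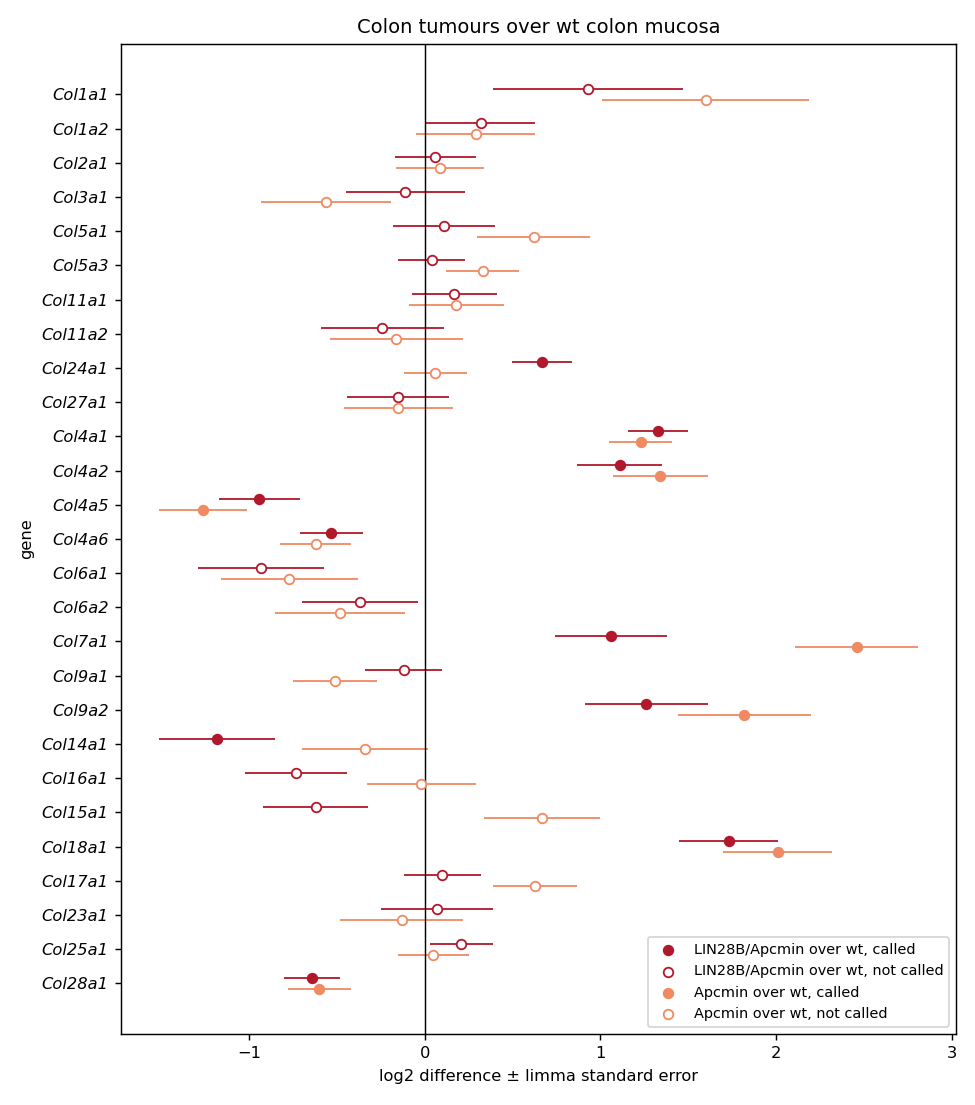
Each row is a collagen gene; points are the log2 difference of LIN28B/Apcmin tumours (3 arrays, dark red) and Apcmin tumours (2 arrays, orange) over wt colon mucosa (2 arrays), with bars of 1 limma standard error, filled where called. Filled points to the right are Col4a1, Col4a2, Col7a1, Col9a2 and Col18a1 in both tumour groups and Col24a1 in LIN28B/Apcmin tumours, and those to the left are Col4a5 and Col28a1 in both and Col4a6 and Col14a1 in LIN28B/Apcmin tumours.

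Col4a1 and Col4a2 encode the chains that make up the common form of the type IV network. Col4a1 read 11.35, 11.65 and 11.47 in LIN28B/Apcmin colon tumours and 11.43 and 11.35 in Apcmin colon tumours, against 10.17 and 10.16 in wt colon mucosa. Col4a2 read 10.93, 11.49 and 10.77 in LIN28B/Apcmin colon tumours and 11.21 and 11.37 in Apcmin colon tumours, against 10.02 and 9.89 in wt colon mucosa. All 5 tumour arrays lay above both wt arrays for each gene. Col4a1 rose by 1.33 ± 0.17 (log2 difference ± limma standard error; adjusted p = 0.000265) in LIN28B/Apcmin tumours and by 1.23 ± 0.18 (adjusted p = 0.00158) in Apcmin tumours. Col4a2 rose by 1.11 ± 0.24 (adjusted p = 0.0074) in LIN28B/Apcmin tumours and by 1.34 ± 0.27 (adjusted p = 0.0081) in Apcmin tumours. Col4a1 stayed called in both comparisons with any 1 of the 14 arrays left out. Col4a2 was not called in Apcmin tumours without wt colon replicate 1 (adjusted p = 0.0509), wt colon replicate 2 (0.0694) or Apcmin colon replicate 2 (0.0699), and not in LIN28B/Apcmin tumours without wt colon replicate 2 (0.0683).

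Col4a1 and Col4a2 are a pair of neighbouring genes read in opposite directions, as are Col4a5 and Col4a6, and the promoter windows of both pairs are shown. Col4a1 and Col4a2 rose in both colon tumour groups. Col4a5 and Col4a6 both fell in LIN28B/Apcmin colon tumours, and of these only Col4a5 was called in Apcmin colon tumours. Whether the windows bear on these differences was not tested. Promoter windows of 250 bases before to 50 bases after an annotated start were taken from RefSeq on GRCm38.p6, where 24 of the 27 genes had 1 or more, 27 windows in all. The deposited arrays carry no coordinates, and which start the RNA came from was not measured. The starts behind the Col4a1 and Col4a2 windows lie 21 bases apart on chromosome 8, and the windows share 78 bases, chr8:11312777-11312854. The sequences run 5′ to 3′ on the strand of each gene, and capitals mark the shared bases.
Col4a1, chr8:11312777-11313076, strand minus: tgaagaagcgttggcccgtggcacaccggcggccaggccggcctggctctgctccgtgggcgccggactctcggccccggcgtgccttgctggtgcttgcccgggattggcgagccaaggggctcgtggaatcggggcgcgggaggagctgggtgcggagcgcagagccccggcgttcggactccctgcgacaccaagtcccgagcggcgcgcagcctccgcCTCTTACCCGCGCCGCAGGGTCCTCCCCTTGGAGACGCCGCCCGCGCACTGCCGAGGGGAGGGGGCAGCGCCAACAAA
Col4a2, chr8:11312555-11312854, strand plus: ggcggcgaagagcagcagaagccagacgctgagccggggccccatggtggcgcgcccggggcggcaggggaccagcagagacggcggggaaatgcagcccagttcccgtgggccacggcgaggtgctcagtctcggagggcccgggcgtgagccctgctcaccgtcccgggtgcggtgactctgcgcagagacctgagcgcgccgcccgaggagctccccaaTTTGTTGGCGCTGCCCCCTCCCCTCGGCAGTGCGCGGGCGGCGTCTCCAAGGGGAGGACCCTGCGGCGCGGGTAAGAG

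Each window was searched on both strands for the letters of 5 motifs. The GC box was spelled GGGCGG and the TATA box TATAAA. The AP-1 site was spelled TGANTCA, where the middle letter stands for any base, and the TCF site CTTTGA. The CCAAT box is spelled as it is named. A base in matches to several motifs counts for each. The Col4a1 and Col4a2 windows overlap, as do the Col6a2 windows, so a site can count in more than 1 window. The GC box of Col4a1 lies in the bases shared with Col4a2. The GC box was in 18 of the 27 collagen windows and in 35.7% of 32851 RefSeq windows of the same length, and the CCAAT box in 12 of 27 and in 37.4%. The TATA box was in 3 of 27 and in 13.6% of all windows, the AP-1 site in 1 of 27 (Col6a1) and in 7.81%, and the TCF site in 6 of 27 and in 16%. The Col4a1 window held 1 GC box and 1 CCAAT box, and the Col4a2 window 3 GC boxes and 1 CCAAT box. Such matches describe the letters of the windows only.

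Col4a5 and Col4a6 encode further type IV chains, which can join into networks apart from that of Col4a1 and Col4a2. Col4a5 read 5.59, 5.41 and 5.51 in LIN28B/Apcmin colon tumours and 5.23 and 5.16 in Apcmin colon tumours, against 6.77 and 6.13 in wt colon mucosa. Every tumour array lay below both wt arrays. Col4a5 fell by 0.94 ± 0.23 on the log2 scale in LIN28B/Apcmin tumours (adjusted p = 0.013) and by 1.26 ± 0.25 in Apcmin tumours (adjusted p = 0.00869). Without wt colon replicate 1 these differences were -0.62 (adjusted p = 0.164) and -0.93 (0.0983). In Apcmin tumours the call was also lost without Apcmin colon replicate 1 (adjusted p = 0.0575) or replicate 2 (0.0664). The Col4a6 probe was detected only on the wt colon arrays, at 5.13 and 4.92. In LIN28B/Apcmin tumours Col4a6 was not well above background on any array and was at least 1.16-fold lower than in wt mucosa (adjusted p = 0.0496), a call that held with 2 of 14 single arrays left out and reached an adjusted p of up to 0.298. In Apcmin tumours Col4a6 was not well above background either, at least 1.15-fold below wt mucosa, and did not pass (adjusted p = 0.0638).

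The Col4a6 and Col4a5 windows lie on chromosome X, on opposite strands with their starts 1343 bases apart, and share no base. They are shown beside the Col4a1 and Col4a2 windows for comparison, and capitals mark the matches to a motif: a CCAAT box and a GC box for Col4a5, and a GC box read on the other strand for Col4a6.
Col4a5, chrX:141475169-141475468, strand plus: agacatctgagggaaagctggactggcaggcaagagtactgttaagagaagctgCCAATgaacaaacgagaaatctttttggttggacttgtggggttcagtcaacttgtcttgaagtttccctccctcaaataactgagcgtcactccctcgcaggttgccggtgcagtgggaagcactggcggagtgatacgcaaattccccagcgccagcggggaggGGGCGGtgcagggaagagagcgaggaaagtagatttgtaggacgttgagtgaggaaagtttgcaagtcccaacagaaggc
Col4a6, chrX:141474027-141474326, strand minus: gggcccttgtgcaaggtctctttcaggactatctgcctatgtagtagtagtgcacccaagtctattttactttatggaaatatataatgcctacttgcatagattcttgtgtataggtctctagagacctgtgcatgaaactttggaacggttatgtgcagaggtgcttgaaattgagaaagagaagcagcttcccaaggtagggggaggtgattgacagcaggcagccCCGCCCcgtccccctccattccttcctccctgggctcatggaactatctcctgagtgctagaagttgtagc

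The multiplexin Col18a1, whose released end fragment is endostatin, rose in both tumour groups. Col18a1 read 11.13, 11.61 and 11.30 in LIN28B/Apcmin colon tumours and 11.52 and 11.75 in Apcmin colon tumours, against 9.78 and 9.46 in wt colon mucosa. The tumour groups overlapped each other and lay above both wt colon arrays, which were also below every small intestinal array (10.09 to 11.05). Col18a1 rose by 1.73 ± 0.28 (adjusted p = 0.00127) in LIN28B/Apcmin tumours and by 2.01 ± 0.31 (adjusted p = 0.00185) in Apcmin tumours, and stayed called with any 1 array left out. A second probe, ILMN_2937542, rose by 1.33 ± 0.19 (adjusted p = 0.000476) in LIN28B/Apcmin tumours and by 1.68 ± 0.20 (adjusted p = 0.000501) in Apcmin tumours. The third probe, ILMN_1225839, was detected in both Apcmin colon tumours and neither wt mucosa, and was at least 1.39-fold higher (adjusted p = 0.0318), a call lost without either array of either group (adjusted p from 0.123 to 0.183). RefSeq gives Col18a1 a pair of windows on the minus strand of chromosome 10. The window chr10:77113656-77113955 held no match to the 5 motifs, and the other is shown with its 3 GC boxes and 1 CCAAT box, each on the other strand, in capitals.
Col18a1, chr10:77166481-77166780, strand minus: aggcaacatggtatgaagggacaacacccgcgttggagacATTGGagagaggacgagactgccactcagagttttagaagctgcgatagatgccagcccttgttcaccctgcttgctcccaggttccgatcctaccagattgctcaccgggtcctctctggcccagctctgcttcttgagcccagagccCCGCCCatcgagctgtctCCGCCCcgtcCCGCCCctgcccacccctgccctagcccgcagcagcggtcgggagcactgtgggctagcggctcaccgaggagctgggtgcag

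Col15a1, the other multiplexin, did not follow Col18a1. Col15a1 read 6.58, 6.82 and 6.23 in LIN28B/Apcmin colon tumours and 7.67 and 8.00 in Apcmin colon tumours, against 7.23 and 7.10 in wt colon mucosa. LIN28B/Apcmin tumours lay below wt and Apcmin tumours above it, and neither difference from wt passed the test (-0.62 ± 0.30, adjusted p = 0.156, and 0.67 ± 0.33, adjusted p = 0.214).

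Col7a1, the chain of the anchoring fibrils, had the largest difference of any collagen gene between Apcmin tumours and wt colon. Col7a1 read 6.06, 6.05 and 6.20 in LIN28B/Apcmin colon tumours and 7.57 and 7.44 in Apcmin colon tumours, against 5.24 and 4.85 in wt colon mucosa. The 3 groups did not overlap, with Apcmin tumours highest. Col7a1 rose by 1.06 ± 0.32 (adjusted p = 0.0346) in LIN28B/Apcmin tumours and by 2.46 ± 0.35 (adjusted p = 0.00135) in Apcmin tumours. The call in Apcmin tumours held with any 1 array left out. Its call in LIN28B/Apcmin tumours was lost without any 1 of the 7 colon arrays, with adjusted p from 0.0512 without Apcmin colon replicate 1 to 0.223 without wt colon replicate 2 (log2 difference 0.86). The Col7a1 window on chromosome 9 held a CCAAT box on the other strand and a GC box, in capitals.
Col7a1, chr9:108953336-108953635, strand plus: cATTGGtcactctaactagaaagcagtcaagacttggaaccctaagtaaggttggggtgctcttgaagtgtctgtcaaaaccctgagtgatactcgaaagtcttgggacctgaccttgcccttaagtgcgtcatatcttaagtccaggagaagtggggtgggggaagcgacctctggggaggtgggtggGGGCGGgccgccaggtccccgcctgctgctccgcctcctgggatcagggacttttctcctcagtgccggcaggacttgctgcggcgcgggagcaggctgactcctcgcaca

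**Figure D3:**
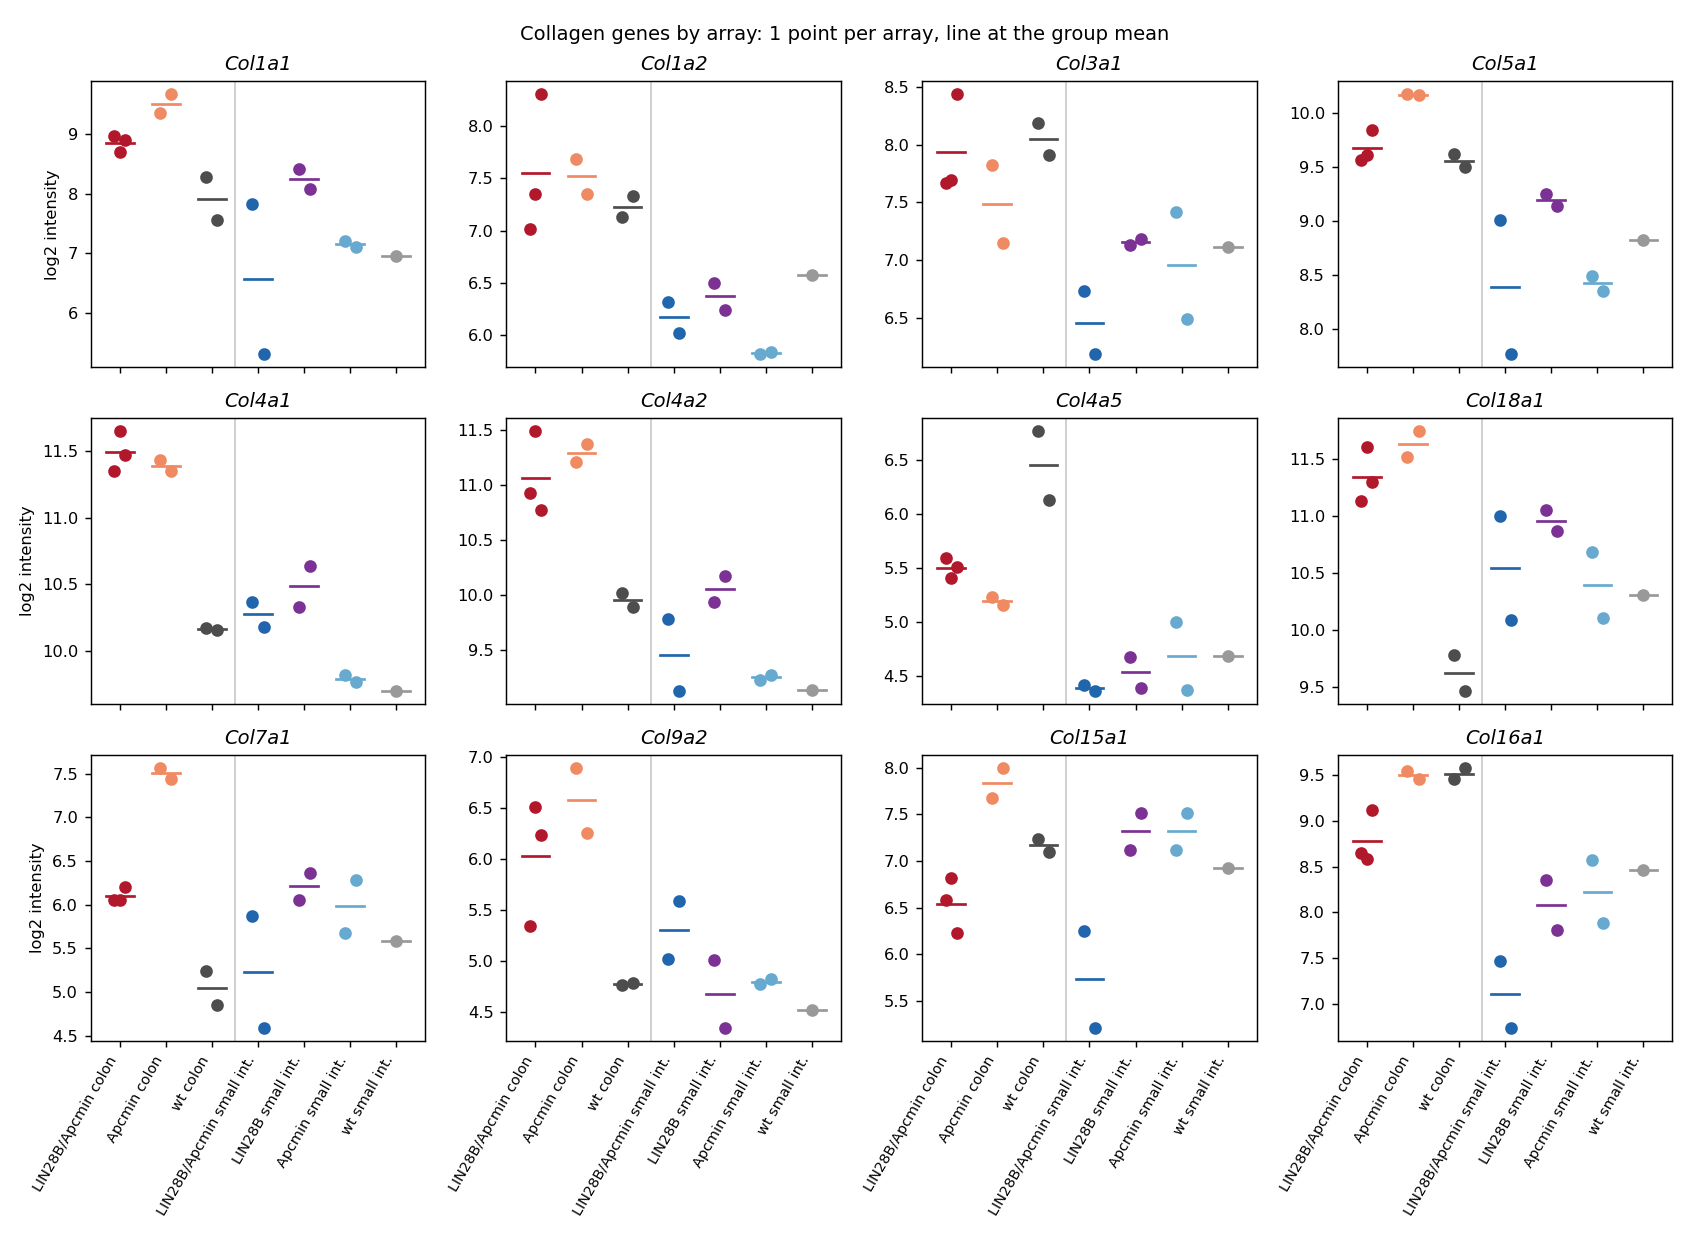
Log2 intensity of 12 collagen genes, 1 point per array and a line at each group mean, with colon groups left of the grey line and small intestinal groups right of it; wt small intestine is 1 array. Col4a1, Col4a2 and Col18a1 are higher on the 5 colon tumour arrays than on the 2 wt colon arrays, Col4a5 is lower, and Col1a1 of LIN28B/Apcmin small intestinal replicate 2 is at 5.30, the lowest point of that gene.

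Among the fibril associated chains, Col9a2, known best from cartilage, read 5.34, 6.51 and 6.24 in LIN28B/Apcmin colon tumours and 6.90 and 6.26 in Apcmin colon tumours, against 4.76 and 4.78 in wt colon mucosa. All tumour arrays were above wt, and the tumour groups overlapped. Col9a2 rose by 1.26 ± 0.35 (adjusted p = 0.0217) in LIN28B/Apcmin tumours and by 1.82 ± 0.38 (adjusted p = 0.0102) in Apcmin tumours. The call in LIN28B/Apcmin tumours was lost without wt colon replicate 1 (adjusted p = 0.12), wt colon replicate 2 (0.111) or LIN28B/Apcmin colon replicate 2 (0.07) or 3 (0.0576). The call in Apcmin tumours was lost without wt colon replicate 1 (adjusted p = 0.0738), wt colon replicate 2 (0.0678) or Apcmin colon replicate 1 (0.107). Col14a1, which binds the surface of fibrils, read 4.73, 4.38 and 4.48 in LIN28B/Apcmin colon tumours and 5.40 and 5.33 in Apcmin colon tumours, against 5.92 and 5.49 in wt colon mucosa. LIN28B/Apcmin tumours were below every other colon array. Col14a1 fell by 1.18 ± 0.33 in LIN28B/Apcmin tumours (adjusted p = 0.0231) and was not called without wt colon replicate 1 (-0.94, adjusted p = 0.188), wt colon replicate 2 (0.0636) or LIN28B/Apcmin colon replicate 2 (0.0654) or 3 (0.052). In Apcmin tumours its difference was -0.34 ± 0.36 (adjusted p = 0.609). Col16a1 and Col9a1 passed in neither comparison, at -0.73 ± 0.29 (adjusted p = 0.0862) and -0.12 ± 0.22 (adjusted p = 0.731) in LIN28B/Apcmin tumours.

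Of 10 fibrillar chains, 1 was called in LIN28B/Apcmin tumours over wt colon, against 27.3% of all genes. In Apcmin tumours over wt colon 0 were called, against 14.1% of all genes. Col24a1, a minor fibrillar chain, read 5.21, 5.49 and 5.23 in LIN28B/Apcmin colon tumours and 4.70 and 4.69 in Apcmin colon tumours, against 4.76 and 4.52 in wt colon mucosa. It rose by 0.67 ± 0.17 in LIN28B/Apcmin tumours (adjusted p = 0.013; 0.138 without wt colon replicate 2). Its other member probe, ILMN_2857666, read highest on LIN28B/Apcmin colon replicate 2 at 5.42 and on Apcmin colon replicate 1 at 5.21. That probe was detected on neither wt colon array and was called in neither tumour group. It was at least 1.16-fold higher in LIN28B/Apcmin tumours (adjusted p = 0.209) and at least 1.33-fold higher in Apcmin tumours (adjusted p = 0.135). Col1a1, the main chain of type I collagen, read 8.96, 8.69 and 8.90 in LIN28B/Apcmin colon tumours and 9.35 and 9.67 in Apcmin colon tumours, against 8.27 and 7.56 in wt colon mucosa. The groups did not overlap, but neither difference passed the test (0.93 ± 0.54, adjusted p = 0.237, and 1.60 ± 0.59, adjusted p = 0.103). Its partner Col1a2 differed by 0.32 ± 0.31 (adjusted p = 0.496) in LIN28B/Apcmin tumours and 0.29 ± 0.34 (adjusted p = 0.667) in Apcmin tumours. Col3a1, the type III chain, differed by -0.11 ± 0.34 (adjusted p = 0.851) and -0.56 ± 0.37 (adjusted p = 0.367), in the same order.

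Type VI chains form the beaded filaments around cells. Col6a1 read 10.42, 9.67 and 9.95 in LIN28B/Apcmin colon tumours and 10.19 and 10.15 in Apcmin colon tumours, against 11.14 and 10.76 in wt colon mucosa. All tumour arrays were below wt, and the differences of -0.93 ± 0.36 (adjusted p = 0.0811) and -0.77 ± 0.39 (adjusted p = 0.238) did not pass. Col28a1 read 4.72, 4.32 and 4.41 in LIN28B/Apcmin colon tumours and 4.59 and 4.46 in Apcmin colon tumours, against 5.15 and 5.10 in wt colon mucosa. It was detected on 1 of the 5 tumour arrays and on both wt arrays. Col28a1 fell by 0.64 ± 0.16 on the log2 scale in LIN28B/Apcmin tumours (adjusted p = 0.0153; 0.113 without wt colon replicate 1 and 0.0873 without wt colon replicate 2). In Apcmin tumours it was at least 1.23-fold lower (adjusted p = 0.0497), with an adjusted p of up to 0.25 with 1 array left out.

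How many collagens were called depended on single arrays and on the title numbers. With arrays of 1 title number averaged, which leaves LIN28B/Apcmin colon tumours with 1 value, the 10 calls in LIN28B/Apcmin tumours over wt colon became 3: Col4a1 (adjusted p = 0.00796), Col4a2 (0.0474) and Col18a1 (0.0365). In LIN28B/Apcmin tumours over wt colon the 10 calls became 4 without wt colon replicate 1, 3 without wt colon replicate 2 and 6 without LIN28B/Apcmin colon replicate 2. In Apcmin tumours over wt colon the 7 calls became 3 without wt colon replicate 1 and 4 without wt colon replicate 2, Apcmin colon replicate 1 or Apcmin colon replicate 2. Calls over all genes fell in each of these fits as well, so the lower counts were not particular to collagens. Markers of other cell types moved with the same comparisons. Of all genes, 27.3% were called in LIN28B/Apcmin tumours and 14.1% in Apcmin tumours. Of 14 smooth muscle markers measured, 14 fell in LIN28B/Apcmin tumours and 12 in Apcmin tumours, with medians of -3.47 and -2.79. The mean log2 level of that list was 6.86 to 7.08 in LIN28B/Apcmin colon tumours and 7.67 to 7.94 in Apcmin colon tumours, against 10.28 to 10.30 in wt colon mucosa. Of 13 fibroblast markers, 2 rose and 5 fell in LIN28B/Apcmin tumours, and 1 rose and 3 fell in Apcmin tumours, with Vim (vimentin) up by 1.01 ± 0.24 and 1.75 ± 0.27 and Mfap5 down by 2.49 ± 0.28 and 1.28 ± 0.31. Mfap5 read 4.39, 4.49 and 4.54 in LIN28B/Apcmin colon tumours, near background, so the size of its fall there is uncertain. Of 12 endothelial markers, 2 rose and 1 fell in LIN28B/Apcmin tumours and 1 rose in Apcmin tumours. Of 8 epithelial markers, 3 and 2 fell, and Uchl1, the single nerve marker measured, fell by 1.80 and 1.30. The part of these cell types in the collagen differences was not tested.

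**Figure D4:**
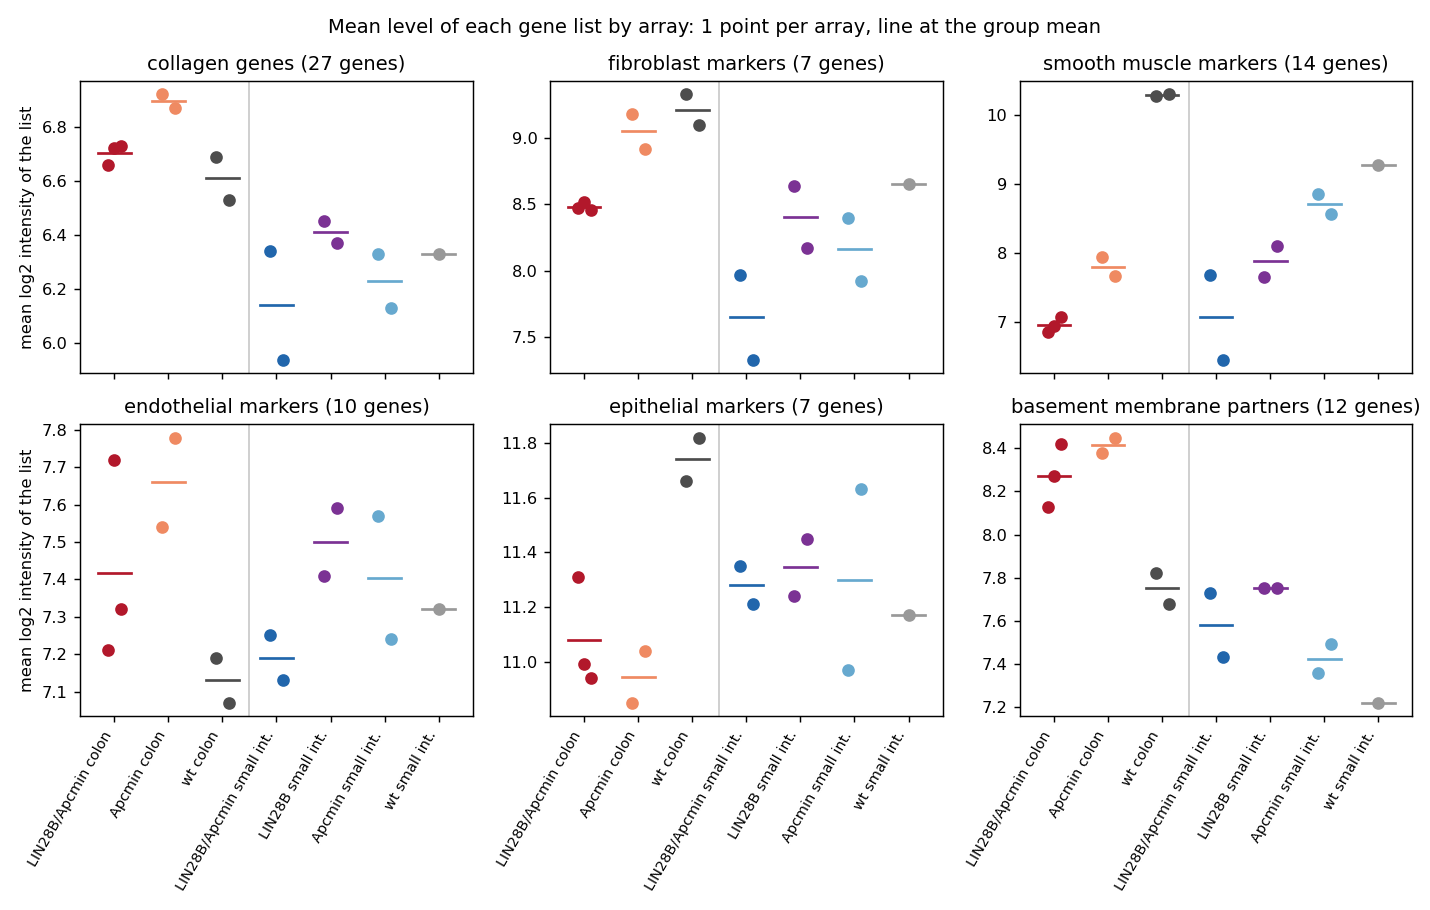
Mean log2 intensity over the genes of each list, 1 point per array and a line at the group mean, for the 27 collagen genes, 4 marker lists and the basement membrane partners; lists are limited to genes with a value on all 14 arrays. Smooth muscle markers are at 6.86 to 7.94 on the colon tumour arrays and at 10.28 to 10.30 on the wt colon arrays, while the collagen mean lies between 6.53 and 6.92 on all colon arrays.

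Colon tumours with and without LIN28B were compared directly to ask what LIN28B adds to Apcmin. None of the 27 collagen genes was called by limma, against 1.21% of all genes in either direction, 0.516% higher and 0.695% lower, and 6 had an unadjusted p under 0.05, against 14.1% of all genes. The median difference was -0.04, against 0 over all genes. The smallest p-values belonged to Col7a1 (-1.41 ± 0.32, unadjusted p = 0.00114, adjusted p = 0.0725), Col15a1 (-1.29 ± 0.30, adjusted p = 0.0736) and Col24a1 (adjusted p = 0.121). The brightest Col24a1 probe was not well above background in Apcmin tumours and at least 1.4-fold higher in LIN28B/Apcmin tumours. The Col24a1 probes disagreed: ILMN_2857666 was detected in both Apcmin tumours and differed by -0.2 ± 0.23 (adjusted p = 0.792). As given above, the Col7a1 and Col15a1 values of the 3 LIN28B/Apcmin tumours were all below those of the 2 Apcmin tumours. Without background correction and with the series matrix values the count was 2, and with median scaling 1. It was also 2 without LIN28B/Apcmin small intestinal replicate 1 or replicate 2.

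In the small intestine, tumours of 3 genotypes were compared with 1 wt mucosa array, so that the spread came from the other groups. By limma, no collagen gene was called in LIN28B/Apcmin tumours, against 5.01% of all genes (2.32% higher, 2.7% lower), in LIN28B tumours, against 2.88% (1.08% higher, 1.8% lower), or in Apcmin tumours, against 0.089%. In that order of genotypes 4, 2 and 1 of 27 had an unadjusted p under 0.05, against 24.8%, 21.1% and 2.32% of all genes. Col4a1 read 10.37 and 10.18 in LIN28B/Apcmin tumours, 10.33 and 10.64 in LIN28B tumours and 9.82 and 9.77 in Apcmin tumours, against 9.70 in wt mucosa. All 6 tumour arrays were above the wt array, by 0.57 ± 0.22 (adjusted p = 0.148), 0.79 ± 0.22 (adjusted p = 0.086) and 0.10 ± 0.22 (adjusted p = 1) in that order of genotypes. In LIN28B/Apcmin tumours Col16a1, a fibril associated chain, differed by -1.36 ± 0.38 (adjusted p = 0.0674) and Col15a1 by -1.19 ± 0.40 (adjusted p = 0.103). In LIN28B tumours Col4a2 differed by 0.91 ± 0.33 (adjusted p = 0.152) and Col6a2 by -0.98 ± 0.45 (adjusted p = 0.253). In Apcmin tumours Col1a2 differed by -0.75 ± 0.42 and Col6a2 by -0.60 ± 0.45, each with an adjusted p of 1. Col9a1 was not well above background in Apcmin tumours, at least 1.27-fold below the wt array, and had the same adjusted p. The count for LIN28B/Apcmin tumours was 4 without LIN28B/Apcmin small intestinal replicate 1 and 1 without either Apcmin small intestinal array.

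A contrast added after the data were seen asked whether the Apcmin over wt difference was larger in the colon than in the small intestine. By the brightest probe no collagen gene was called, against 1.28% of all genes (0.552% higher, 0.73% lower), and 7 of 27 had an unadjusted p under 0.05, against 13.3% of all genes. Col18a1 differed by 1.94 ± 0.49 (adjusted p = 0.0987), Col4a1 by 1.13 ± 0.29 (adjusted p = 0.106) and Col7a1 by 2.07 ± 0.56 (adjusted p = 0.123). The second Col18a1 probe, ILMN_2937542, was called at 1.60 ± 0.32 (adjusted p = 0.0386). The count by brightest probe was 2 without either LIN28B/Apcmin small intestinal array. The corresponding contrast for LIN28B/Apcmin over Apcmin called no collagen gene, against 0.374% of all genes, and 2 of 27, Col24a1 (adjusted p = 0.259) and Col5a3 (adjusted p = 0.309), had an unadjusted p under 0.05, against 16.5% of all genes. By its brightest probe, each of these genes had a group in which it was not well above background on any array.

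Between small intestinal tumours, Col15a1 was the one collagen gene called. It read 6.25 and 5.21 in LIN28B/Apcmin tumours and 7.12 and 7.51 in LIN28B tumours, against 7.12 and 7.51 in Apcmin tumours. Both LIN28B/Apcmin arrays were below all other small intestinal arrays. Col15a1 fell by 1.58 ± 0.33 on the log2 scale in LIN28B/Apcmin tumours relative to Apcmin tumours (adjusted p = 0.0266), 1 of 27 genes lower, against 2.4% of all genes lower and 4.41% called in either direction. Relative to LIN28B tumours the difference was also -1.58 ± 0.33 and did not pass (adjusted p = 0.0561). In that comparison no collagen gene was called by limma, against 0.855% of all genes, and 6 of 27 had an unadjusted p under 0.05, against 15.6% of all genes. Both comparisons share the LIN28B/Apcmin arrays. Col16a1 differed by -1.12 ± 0.31 relative to Apcmin tumours (adjusted p = 0.0663) and by -0.98 ± 0.31 relative to LIN28B tumours (adjusted p = 0.178). Col4a1 differed by 0.48 ± 0.18 relative to Apcmin tumours (adjusted p = 0.149), and Col1a1 by -1.67 ± 0.59 relative to LIN28B tumours (adjusted p = 0.212).

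The Col15a1 call relative to Apcmin tumours was lost without wt colon replicate 1 (adjusted p = 0.0507), wt colon replicate 2 (0.0514), Apcmin small intestinal replicate 1 (0.0624) or replicate 2 (0.0552), or LIN28B/Apcmin small intestinal replicate 2 (log2 difference -1.06, 0.21). It was also lost with arrays of 1 title number averaged (0.058). The number of collagen genes called there was 4 without LIN28B/Apcmin small intestinal replicate 1, 2 without Apcmin small intestinal replicate 2 and 0 without wt colon replicate 1 or 2, Apcmin small intestinal replicate 1 or LIN28B/Apcmin small intestinal replicate 2. Relative to LIN28B tumours it was 4 without LIN28B/Apcmin small intestinal replicate 1 and 1 without either Apcmin small intestinal array. Calls over all genes rose or fell with the collagen count in each of these fits. Relative to Apcmin tumours, 8 of 14 smooth muscle markers and 1 of 13 fibroblast markers fell, against 2.4% of all genes. The mean log2 level of the smooth muscle list was 6.46 to 7.69 in LIN28B/Apcmin tumours, against 8.56 to 8.85 in Apcmin tumours. The part of these cell types in the Col15a1 difference was not tested.

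Tumours of the colon were compared with tumours of the small intestine within each genotype. Col1a1, Col1a2, Col5a1, Col4a1, Col4a2 and Col16a1 were higher in colon tumours of both genotypes. In LIN28B/Apcmin tumours 8 of 27 collagen genes were higher in the colon, against 8.14% of all genes higher and 15.4% called in either direction, and none was lower, against 7.29% of all genes. In Apcmin tumours 9 of 27 were higher, against 10.2% of all genes higher and 19.1% called in either direction, and none was lower, against 8.94% of all genes. The median collagen difference was 0.48 in LIN28B/Apcmin tumours, against 0.01 over all genes, and 0.51 in Apcmin tumours, against 0.05. In wt mucosa the only call was Col4a5, 1 of 27 higher, against 2.97% of all genes higher and 5.94% called in either direction, and the median was 0.24, against 0.06 over all genes. Col16a1 (1.06 ± 0.38, adjusted p = 0.172) came next by p-value in wt mucosa and did not pass. Nor did Col28a1, which was not well above background on the wt small intestinal array and at least 1.25-fold higher in wt colon (adjusted p = 0.177).

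**Figure D5:**
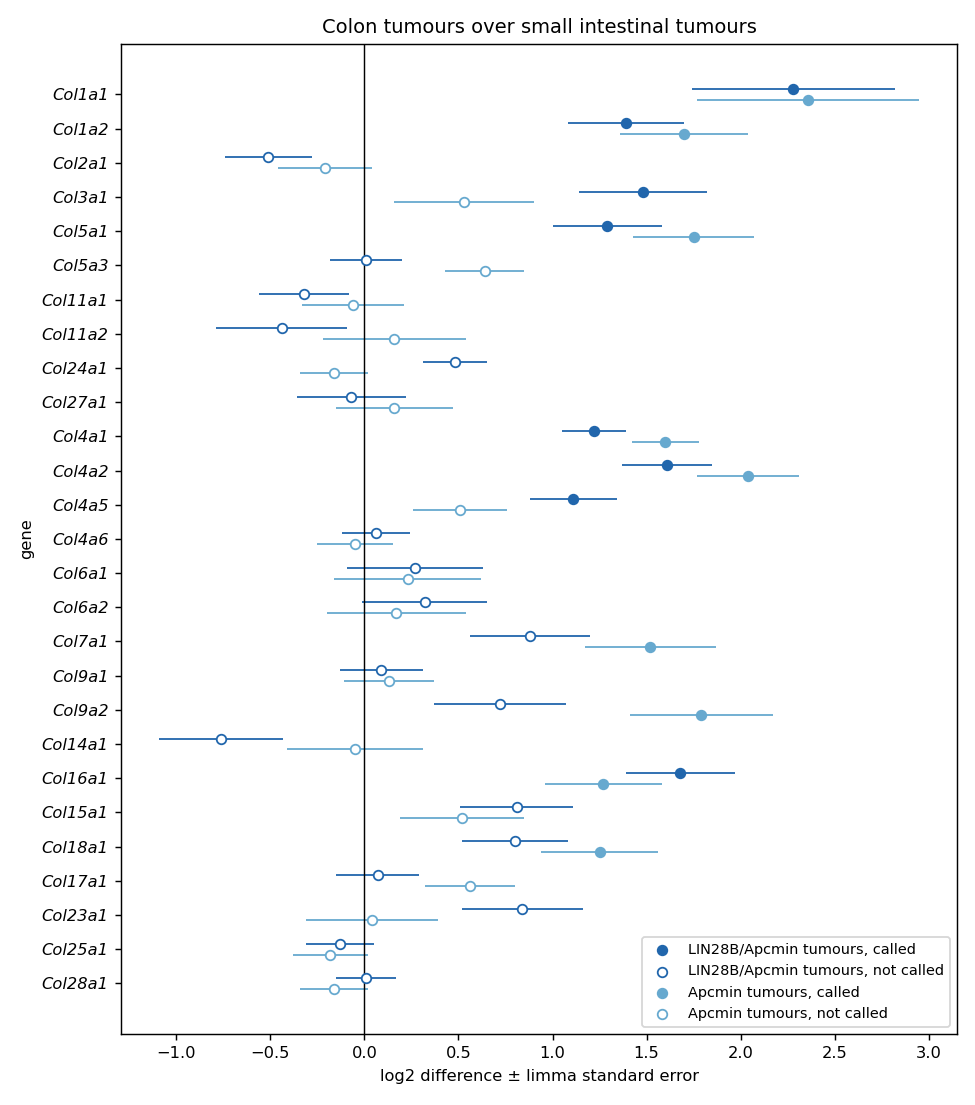
Each row is a collagen gene; points are the log2 difference of colon over small intestinal tumours for LIN28B/Apcmin (3 and 2 arrays, dark blue) and Apcmin (2 and 2 arrays, light blue), with bars of 1 limma standard error, filled where called. Col1a1, Col1a2, Col5a1, Col4a1, Col4a2 and Col16a1 are filled for both genotypes, and no filled point lies left of 0.

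Col1a1 read 8.96, 8.69 and 8.90 in LIN28B/Apcmin colon tumours, against 7.83 and 5.30 in LIN28B/Apcmin small intestinal tumours, and 9.35 and 9.67 in Apcmin colon tumours, against 7.21 and 7.10 in Apcmin small intestinal tumours. The organs did not overlap in either genotype. Col1a1 was higher in the colon by 2.28 ± 0.54 (adjusted p = 0.0176) in LIN28B/Apcmin tumours and by 2.36 ± 0.59 (adjusted p = 0.0186) in Apcmin tumours. Without LIN28B/Apcmin small intestinal replicate 2 the difference was 1.01 (adjusted p = 0.0677), and without replicate 1 of that group 3.55. In Apcmin tumours the call was lost without any 1 of the 4 Apcmin arrays, with adjusted p from 0.0551 to 0.114. Col1a2 was higher by 1.39 ± 0.31 (adjusted p = 0.0142) in LIN28B/Apcmin tumours and by 1.70 ± 0.34 (adjusted p = 0.00643) in Apcmin tumours, with an adjusted p of 0.101 without LIN28B/Apcmin small intestinal replicate 2 and 0.0646 without Apcmin colon replicate 1.

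Col5a1, which helps to start and size type I fibrils, read 9.57, 9.61 and 9.85 in LIN28B/Apcmin colon tumours, against 9.01 and 7.76 in LIN28B/Apcmin small intestinal tumours, and 10.18 and 10.17 in Apcmin colon tumours, against 8.49 and 8.35 in Apcmin small intestinal tumours. Colon arrays were above small intestinal ones in both genotypes. The differences were 1.29 ± 0.29 (adjusted p = 0.0136) in LIN28B/Apcmin tumours and 1.75 ± 0.32 (adjusted p = 0.00362) in Apcmin tumours. The first was 0.66 (adjusted p = 0.0794) without LIN28B/Apcmin small intestinal replicate 2, and the second held with any 1 array left out. Col3a1 was higher by 1.48 ± 0.34 in LIN28B/Apcmin tumours (adjusted p = 0.0147; 0.122 without LIN28B/Apcmin small intestinal replicate 2). In Apcmin tumours its probes disagreed: the brightest differed by 0.53 ± 0.37 and was not called, and ILMN_2683958 by 1.81 ± 0.38 (adjusted p = 0.00791; 0.0715 without Apcmin colon replicate 1).

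Col4a1 read 11.35, 11.65 and 11.47 in LIN28B/Apcmin colon tumours, against 10.37 and 10.18 in LIN28B/Apcmin small intestinal tumours, and 11.43 and 11.35 in Apcmin colon tumours, against 9.82 and 9.77 in Apcmin small intestinal tumours. Each colon array was above each small intestinal one, by 1.22 ± 0.17 (adjusted p = 0.001) in LIN28B/Apcmin tumours and 1.60 ± 0.18 (adjusted p = 0.000245) in Apcmin tumours. Its neighbour Col4a2 was higher by 1.61 ± 0.24 (adjusted p = 0.00186) and 2.04 ± 0.27 (adjusted p = 0.00057) in the same order. For both genes the calls held in both genotypes with any 1 array left out. Col4a5 was not well above background in either LIN28B/Apcmin small intestinal tumour and was at least 1.5-fold higher in the colon tumours (adjusted p = 0.01; 0.059 without LIN28B/Apcmin small intestinal replicate 2). In wt mucosa Col4a5 was at least 3.13-fold higher in the colon, at 6.77 and 6.13, against 4.69 and not well above background on the wt small intestinal array (adjusted p = 0.00686; 0.0513 without wt colon replicate 1).

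Col16a1 read 8.65, 8.58 and 9.12 in LIN28B/Apcmin colon tumours, against 7.47 and 6.74 in LIN28B/Apcmin small intestinal tumours, and 9.54 and 9.45 in Apcmin colon tumours, against 8.57 and 7.88 in Apcmin small intestinal tumours. The organs did not overlap, and the differences were 1.68 ± 0.29 (adjusted p = 0.00344) and 1.27 ± 0.31 (adjusted p = 0.0174). Col9a2, Col7a1 and Col18a1 were called in Apcmin tumours only, at 1.79 ± 0.38 (adjusted p = 0.00849), 1.52 ± 0.35 (adjusted p = 0.0135) and 1.25 ± 0.31 (adjusted p = 0.0175). The Col9a2 call was lost without Apcmin colon replicate 1 (adjusted p = 0.0875). The Col7a1 call was lost without Apcmin colon replicate 1 (0.0834) or 2 (0.0647) or Apcmin small intestinal replicate 1 (0.1). The calls of Col18a1 and Col16a1 were lost without Apcmin colon replicate 1 (0.068 and 0.101) or 2 (0.117 and 0.0803) or Apcmin small intestinal replicate 2 (0.0918 and 0.0954). Col9a2, Col7a1 and Col18a1 differed in LIN28B/Apcmin tumours by 0.72 ± 0.35, 0.88 ± 0.32 and 0.80 ± 0.28, and none passed. The test of the difference between genotypes gave an adjusted p of 0.337 for Col9a2, 0.538 for Col7a1 and 0.637 for Col18a1. The other probes of Col17a1, a hemidesmosome collagen of the cell membrane, were at least 1.93-fold (ILMN_2879995, adjusted p = 0.0382) and at least 1.65-fold higher (ILMN_1240481, adjusted p = 0.0432) in Apcmin colon tumours, while its brightest probe was not called. These probe calls held with 5 and 4 of 14 single arrays left out, and without Apcmin colon replicate 2 the differences were 0.94 (adjusted p = 0.263) and 0.75 (0.278).

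With arrays of 1 title number averaged, the 8 calls in LIN28B/Apcmin tumours became 4: Col4a1 (adjusted p = 0.0205), Col4a2 (0.0251), Col1a2 (0.0241) and Col16a1 (0.0494). In Apcmin tumours Col1a1 was then not called (0.0571). The count in LIN28B/Apcmin tumours was 3 without LIN28B/Apcmin small intestinal replicate 2, the array of mixed title. In Apcmin tumours it was 3 without Apcmin colon replicate 1 and 5 without Apcmin colon replicate 2. In wt mucosa it was 0 without wt colon replicate 1. Of 13 fibroblast markers, 2 were higher in colon tumours with LIN28B/Apcmin and 4 in those with Apcmin, none lower, with Vim at 2.67 ± 0.24 and 3.33 ± 0.27 and Thy1 at 2.13 ± 0.34 and 1.74 ± 0.34. Thy1 had no value on LIN28B/Apcmin colon replicate 3. The mean log2 level of the fibroblast list covers the 7 markers with a value on all 14 arrays, Thy1 not among them. It was 8.46 to 8.52 in LIN28B/Apcmin colon tumours, against 7.33 to 7.97 in LIN28B/Apcmin small intestinal tumours. In Apcmin it was 8.92 to 9.18 in colon tumours, against 7.92 to 8.40 in small intestinal tumours. Of 14 smooth muscle markers none was higher in either genotype, and 5 were lower in Apcmin colon tumours. Beside these counts, 8.14% of all genes were higher and 7.29% lower in LIN28B/Apcmin colon tumours, and 10.2% and 8.94% in Apcmin colon tumours. Of 4 leukocyte markers, 2 were higher in LIN28B/Apcmin colon tumours and 1 in Apcmin colon tumours, and of 12 endothelial markers none was called. Of 8 epithelial markers, 2 were lower in LIN28B/Apcmin colon tumours and 3 in Apcmin colon tumours, with Cdx2, an intestinal transcription factor, at -1.99 ± 0.49 and -3.62 ± 0.54. The part of these cell types in the collagen differences between organs was not tested.

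Genes that fold, cut, cross-link and degrade collagens were counted from lists written with earlier results of these data known. Over all genes 13.3% rose and 14% fell in LIN28B/Apcmin over wt colon, and 6.4% and 7.65% in Apcmin over wt colon. Between organs 8.14% of all genes were higher and 7.29% lower in LIN28B/Apcmin colon tumours, and 10.2% and 8.94% in Apcmin colon tumours. Of 12 basement membrane partners measured, 3 rose in LIN28B/Apcmin colon tumours and 4 in Apcmin colon tumours relative to wt, and none fell. Lama1, a laminin chain, was highest among them at 2.91 ± 0.38 (adjusted p = 0.000343) and 2.88 ± 0.42 (adjusted p = 0.00143), and Nid2, which links laminin to type IV collagen, rose by 0.96 ± 0.23 and 0.99 ± 0.25. Between organs 6 of 12 were higher in LIN28B/Apcmin colon tumours and 7 of 12 in Apcmin colon tumours, with Lama1 at 1.38 ± 0.38 and 2.37 ± 0.42 and Sparc, a matrix protein that binds collagen, at 1.53 ± 0.25 and 1.91 ± 0.28. The list of collagen degradation also holds Timp1, Timp2 and Timp3, which inhibit matrix proteases. Of its 14 genes, 7 rose and 2 fell in LIN28B/Apcmin colon tumours, and 7 rose and 1 fell in Apcmin colon tumours. Mmp10, Mmp13 and Mmp7, secreted proteases, rose by 5.41 ± 0.47, 4.01 ± 0.44 and 4.35 ± 0.52 in LIN28B/Apcmin tumours and by 6.22 ± 0.51, 5.29 ± 0.48 and 3.01 ± 0.57 in Apcmin tumours. Fap, a fibroblast surface protease, fell by 1.17 ± 0.23 and 1.00 ± 0.25. Mmp7 read 4.37 and 4.44 in wt colon mucosa. Fap read 4.47, 4.44 and 4.75 in LIN28B/Apcmin and 4.9 and 4.54 in Apcmin colon tumours. These values were near background, so the sizes of the Mmp7 and Fap differences are uncertain.

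Of 14 genes of collagen folding and modification, 2 rose and 1 fell in each colon tumour group relative to wt. Over all genes 13.3% rose and 14% fell in LIN28B/Apcmin over wt colon, and 6.4% and 7.65% in Apcmin over wt colon. Colgalt1, which adds galactose to collagen, was up by 1.30 ± 0.24 in LIN28B/Apcmin tumours and 0.94 ± 0.26 in Apcmin tumours. Between organs 5 of the folding genes were higher and 1 lower in LIN28B/Apcmin colon tumours and 5 were higher and none lower in Apcmin colon tumours. Over all genes the shares between organs were 8.14% higher and 7.29% lower in LIN28B/Apcmin tumours, and 10.2% and 8.94% in Apcmin tumours. Serpinh1, the collagen chaperone Hsp47, was higher by 2.29 ± 0.31 (adjusted p = 0.000851) in LIN28B/Apcmin tumours, and its difference in Apcmin tumours was 0.80 ± 0.34 (adjusted p = 0.125). Serpinh1 read 4.87 and 4.39 in LIN28B/Apcmin small intestinal tumours, near background, so the size of the first difference is uncertain. Of 12 genes of collagen processing and crosslinking, 2 rose and 2 fell in LIN28B/Apcmin colon tumours relative to wt and 3 rose in Apcmin colon tumours, with Bmp1, which trims procollagen, up by 1.47 ± 0.25 and 1.24 ± 0.28. Between organs 5 were higher in LIN28B/Apcmin colon tumours and 6 in Apcmin colon tumours, with Pcolce, which speeds procollagen trimming, at 2.06 ± 0.40 in LIN28B/Apcmin tumours, the cross-linking enzyme Lox at 2.49 ± 0.64 in Apcmin tumours and, in both, the small proteoglycan Bgn at 1.69 ± 0.32 and 1.84 ± 0.35. Pcolce read 5.6 and 4.32 in LIN28B/Apcmin small intestinal tumours, the lower value on the array of mixed title. For the genes of these lists, fits with arrays left out are not given. Of 12 genes of the TGF-beta pathway, 3 rose in each colon tumour group, with Tgfb1, a ligand, at 0.88 ± 0.23 and 1.04 ± 0.26. Of 8 collagen receptors and uptake genes, 1 rose and 1 fell in LIN28B/Apcmin colon tumours and 2 rose in Apcmin colon tumours, with Itga11, an integrin chain that binds fibrillar collagen, down by 1.17 ± 0.25 in LIN28B/Apcmin tumours.

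The remaining collagen genes passed in no comparison by their brightest probe. Col2a1, Col11a1 and Col11a2, fibrillar chains known from cartilage, ranged from 4.39 to 5.25, from 4.38 to 5.27 and from 4.25 to 5.47 over the 14 arrays. Col5a3 ranged from 4.47 to 5.22 and Col27a1 from 4.43 to 5.75, both fibrillar. Col23a1, a transmembrane collagen, ranged from 4.56 to 5.92 and was detected on 11 arrays. Col6a2, the partner of Col6a1 in type VI collagen, was detected on all 14 arrays and ranged from 6.54 to 8.21, with a difference of -0.37 ± 0.33 in LIN28B/Apcmin colon tumours and -0.48 ± 0.37 in Apcmin colon tumours relative to wt.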

How the data were processed

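RNA of 16 mouse gut samples was hybridised to Illumina arrays. The deposited non-normalized table gives an intensity and a detection p-value per probe and array, per the file headers; scanner software and build are not given in the sources used here. A separate probe annotation names 1 gene for 23978 of the 25697 probes, and the other 1719 have no symbol or more than 1. In the deposited table, 2 lines that lack a probe identifier were dropped. Arrays with under 20% of probes detected were left out (2 of 16), and intensities under 25 were set missing.

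Intensities were background corrected by normexp with detection p-values (offset 16), put on the log2 scale and quantile normalized with limma 3.58.1 in R 4.3.3. Probes detected on 2 or more of 14 arrays (15495 probes) were fitted on 7 group means with lmFit and eBayes (7 residual degrees of freedom), without a replicate block, in two-sided tests with Benjamini-Hochberg adjustment at 0.05. Background shares count the brightest probe of each of 11230 genes. The 13 comparisons share groups, and 1 of them was added after the data were seen. A collagen probe undetected on a whole group is given as a lower bound. The bound sets the bright group's mean against the higher, per array, of the probe and the lowest detected signal. For list and marker genes no bound was taken. Their differences are of uncertain size where a group reads near background. The number of arrays limits the precision.

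The collagen genes, gene lists and tests were chosen with earlier results of these data known. Genes were named by a fixed rule: up to 10 called collagens per comparison by size, the 3 of smallest p where fewer than 3 were called, and up to 3 called genes per direction from each pathway list. Same-numbered replicates were checked for pairing over 30 pairs of arrays: correlations of deviations from group means ran from -0.0357 to 0.345, with 5 over 0.1. The single wt small intestinal array has no deviation from its group mean, so its pairing with wt colon could not be checked. In groups of 2 arrays the deviations mirror each other. Whether the numbers pair the samples is therefore not settled. Alternatives were other arrays, corrections, scalings, filters and blocks, the authors' deposited series matrix intensities, and each array left out. Figures used Python 3.11, matplotlib 3.10.9 and pandas 2.3.3.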

Additional observations from a re-analysis of the deposited data

Results flagged for a closer look

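The second Col18a1 probe, ILMN_2937542, had an Apcmin over wt difference that was larger in the colon than in the small intestine by 1.60 ± 0.32 on the log2 scale (limma, adjusted p = 0.0386), a test of the difference itself. The probe read 7.21 and 7.43 in Apcmin colon tumours, against 5.72 and 5.56 in wt colon mucosa, and 6.45 and 5.99 in Apcmin small intestinal tumours, against 6.14 on the single wt small intestinal array. The contrast was added after the data were seen. It was called in 9 of 22 alternative fits, with values from 0.64 to 1.84 and adjusted p from 0.0251 to 0.915, and in 5 of 13 fits that left out 1 array. The brightest Col18a1 probe gave 1.94 ± 0.49 (adjusted p = 0.0987).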

How the results depend on the processing

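With all 16 arrays, the 2 poorly detected ones included, no collagen gene was called in LIN28B/Apcmin or Apcmin over wt colon, in LIN28B/Apcmin over Apcmin small intestine or in the 3 comparisons between organs, where the 14 arrays gave 10, 7, 1 and, for LIN28B/Apcmin, Apcmin and wt, 8, 9 and 1 calls (limma). Calls over all genes fell there too, from 3066 to 85 in LIN28B/Apcmin over wt colon and from 1578 to 0 in Apcmin over wt colon. They fell from 495 to 0 in LIN28B/Apcmin over Apcmin small intestine. Under that setting Col4a6 turned to 0.66 in LIN28B/Apcmin over wt colon, Col4a5 to -0.46 between organs in wt, and Col4a1 to -0.01 between organs in LIN28B/Apcmin tumours. Averaging arrays of 1 title number gave 3 calls in LIN28B/Apcmin over wt colon, 0 in LIN28B/Apcmin over Apcmin small intestine and 4 between organs in LIN28B/Apcmin, with fewer samples by construction. LIN28B/Apcmin over Apcmin colon gave 2 calls without background correction, 1 with median scaling and 2 with series matrix values. LIN28B over wt small intestine gave 1 call without background correction and 1 with series matrix values, and the added Apcmin over wt contrast between organs 1 with series matrix values. LIN28B/Apcmin over Apcmin small intestine gave 0 calls with median scaling and 0 without the detection filter, and LIN28B/Apcmin over LIN28B gave 1 with median scaling and 1 with title number as a random block. The replicate block gave 1 call in LIN28B/Apcmin over wt small intestine and 2 in LIN28B/Apcmin over Apcmin small intestine. Whether the replicate numbers pair the samples was not settled. Every other count stayed within 1.5 times. The cause was not tested for any of these.

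Leaving out 1 array gave 3 to 10 calls in LIN28B/Apcmin over wt colon, 3 to 9 in Apcmin over wt colon and 0 to 2 in LIN28B/Apcmin over Apcmin colon. In the small intestine it gave 0 to 4 in LIN28B/Apcmin over wt, over Apcmin and over LIN28B, and 0 to 0 in LIN28B and in Apcmin over wt. Between organs it gave 3 to 11 in LIN28B/Apcmin, 3 to 10 in Apcmin and 0 to 1 in wt, and 0 to 2 and 0 to 0 in the Apcmin over wt and LIN28B/Apcmin over Apcmin contrasts between organs. Of the 36 calls of single collagen genes, 36 held with 1 probe per gene and with a random block for title number, 34 without background correction, without the detection filter, with signals under 25 kept and with the replicate block, 33 with median scaling, 32 with series matrix values, 22 with title numbers averaged and 0 with all 16 arrays. With arrays left out, 426 of 503 held. Most of these fits left out an array outside the groups compared, so the share says little about calls without an array of those groups. A slide block was not run, since the headers give no slide.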
